A study of Mus musculus with 18 samples.

Results

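Expression of 8 genes of mineral deposition was followed across 3 tissues of the embryonic mouse mandible. They were Alpl, Phospho1, Entpd5, Smpd3, Slc20a1, Slc20a2, Anxa5 and Anxa6, found by the symbol of their gene identifier among the 38243 genes of the count tables. All 8 were found and all 8 were among the 11469 genes kept by the filter on low values, which asked for a level over 1 FPKM (fragments per exon length and library size) in at least 50% of the libraries. The name mineralization phosphatases and phosphate transporters covers most but not all of them, since Smpd3 cleaves a lipid and the annexins bind membranes.

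RNA was measured in 18 libraries from 6 female C57BL/6 embryos at E16.5. Of these, 3 were Fgfr2+/S252W, with the Ser252Trp change of fibroblast growth factor receptor 2 on 1 allele, a model of Apert syndrome, and 3 were Fgfr2+/+ littermates without it. Mandibular bone, Meckel's cartilage (MC) and mandibular condylar cartilage were cut from frozen sections by laser capture microdissection and not pooled, so that each of the 6 groups held 3 libraries. That libraries of 1 genotype with the same number came from 1 embryo was read from the numbers and codes of the labels, which name no treatment, no Cre driver and no other allele. Deviations of such libraries from their group means did not rise and fall together across tissues (r -0.10 to 0.10 over 18 pairs), so counts of embryos below rest on the labels.

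Bone and hypertrophic cartilage mineralize when phosphate and calcium gather in matrix vesicles, small membrane sacs that bud from osteoblasts and chondrocytes. Inside them PHOSPHO1 frees phosphate from phosphocholine, a breakdown product of membrane lipids, and on their surface tissue-nonspecific alkaline phosphatase, the product of Alpl, hydrolyzes pyrophosphate, an inhibitor of mineral, into phosphate. The sodium-dependent carriers encoded by Slc20a1 and Slc20a2 move phosphate into cells, and annexins bind calcium and acidic lipids on vesicle membranes. In the mandible, bone forms directly from mesenchyme beside MC, a rod of cartilage that for the most part does not become bone, whereas the condylar cartilage passes through a hypertrophic stage before it is replaced.

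The total count on genes ranged from 8218548 to 15585778 fragments among the libraries. The labelled tissues were checked against 12 osteoblast, 12 chondrocyte and 5 hypertrophic chondrocyte markers. The summed level of the osteoblast list, in CPM after TMM normalization, that is, counts scaled to library size with factors that even out composition, was 28756 to 62490 in bone, 7567 to 27383 in condylar cartilage and 2872 to 6046 in MC. The chondrocyte list was at 38172 to 45934 in condylar cartilage but at 1039 to 10813 in MC and 1410 to 2428 in bone. The hypertrophic list was at 3717 to 6919 in condylar cartilage, 1196 to 2296 in bone and 36.9 to 206 in MC. The MC library most apart was Fgfr2+/+ replicate 1, which had the lowest chondrocyte sum and the highest osteoblast sum of MC and a Col2a1 level of 212 CPM against 1563 to 7201 in the other MC libraries. Fgfr2+/S252W MC replicate 1 had the highest chondrocyte sum, 10813 against 2906 to 4083 in the other 4, and Fgfr2+/+ MC replicate 2 the most muscle markers, 243 CPM against at most 92.2. The sum of 7 connective tissue and perichondrium markers was 1176 to 1698 CPM in MC and 576 to 808 CPM in condylar cartilage, with no overlap, and its part in the differences between the cartilages was not tested. In condylar cartilage the library numbered 3 of each genotype had the highest osteoblast sums, 17039 and 27383 against at most 9325 in the other 4. Fgfr2+/+ bone was also uneven. Its replicates 1 and 2 held 35.95% and 34.8% mitochondrial fragments, 35859 and 28756 CPM of osteoblast markers and 248 and 236 CPM of 8 skeletal muscle markers, and its replicate 3 held 20.4%, 62490 CPM and 30.1 CPM. The Fgfr2+/S252W bone libraries lay at 23.4% to 23.6%, 50782 to 53177 CPM and 4.45 to 31.4 CPM. Gm42418 alone took 24.1% to 39.4% of the fragments in MC and 5.58% to 9.33% in bone. For part of the results below, values without 1 or more of these libraries are given as well. In bulk tissue, fewer cells of a type and less RNA per cell cannot be told apart.

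In the files' annotation of GRCm38, Alpl (ENSMUSG00000028766) lies at chr4:137741733-137796384, Phospho1 (ENSMUSG00000050860) at chr11:95824499-95832140 and Entpd5 (ENSMUSG00000021236) at chr12:84373857-84409029. Smpd3 (ENSMUSG00000031906) lies at chr8:106252548-106337988 and Slc20a2 (ENSMUSG00000037656) on the same chromosome at chr8:22476700-22569607, with Slc20a1 (ENSMUSG00000027397) at chr2:129198764-129211616. Anxa5 (ENSMUSG00000027712) lies at chr3:36448925-36475843 and Anxa6 (ENSMUSG00000018340) at chr11:54979108-55033445. RefSeq promoter windows on GRCm38.p6 were at hand for 5 of the 8 genes, with 7 starts in all, and none was at hand for Smpd3, Slc20a2 and Anxa6. Below are the 250 bases before the start of Alpl (chr4:137796385-137796634, minus strand), Phospho1 (chr11:95824250-95824499, plus strand) and Anxa5 (chr3:36475888-36476137, minus strand), which were lowest in MC, and of Slc20a1 (chr2:129198523-129198772, plus strand), which was not. They are shown because the first 3 genes were higher in bone and condylar cartilage than in MC and the last was not. Capitals mark matches to the GC box GGGCGG and the RUNX core TGTGGT on either strand, and matches that overlap were counted separately.
Alpl: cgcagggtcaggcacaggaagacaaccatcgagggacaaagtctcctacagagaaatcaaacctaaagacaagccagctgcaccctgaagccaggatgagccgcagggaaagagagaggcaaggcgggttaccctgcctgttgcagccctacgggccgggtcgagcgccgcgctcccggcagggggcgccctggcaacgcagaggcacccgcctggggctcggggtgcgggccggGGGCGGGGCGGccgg
Phospho1: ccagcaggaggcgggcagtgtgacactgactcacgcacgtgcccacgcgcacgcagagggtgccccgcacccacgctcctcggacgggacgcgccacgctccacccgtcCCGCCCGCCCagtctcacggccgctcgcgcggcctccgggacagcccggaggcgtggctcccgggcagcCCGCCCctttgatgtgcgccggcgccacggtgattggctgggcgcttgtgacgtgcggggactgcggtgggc
Anxa5: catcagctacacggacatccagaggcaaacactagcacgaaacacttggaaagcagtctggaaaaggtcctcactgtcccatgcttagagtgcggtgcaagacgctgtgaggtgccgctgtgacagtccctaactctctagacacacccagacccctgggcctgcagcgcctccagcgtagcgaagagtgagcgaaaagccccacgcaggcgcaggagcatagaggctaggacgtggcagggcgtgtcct
Slc20a1: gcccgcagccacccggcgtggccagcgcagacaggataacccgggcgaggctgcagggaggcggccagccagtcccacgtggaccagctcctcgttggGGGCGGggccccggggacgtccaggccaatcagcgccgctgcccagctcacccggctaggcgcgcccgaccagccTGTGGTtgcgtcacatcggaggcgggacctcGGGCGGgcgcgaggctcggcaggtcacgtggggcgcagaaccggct
The GC box was found 2 times before Alpl, 3 times before Phospho1, 2 times before Slc20a1 and not before Anxa5. It was present in 32.7% of all 32851 windows of this length. The RUNX core, bound by RUNX factors of the kind that set the osteoblast fate, was present in 1 of these 4 windows, that of Slc20a1, 77 bases before the start, and in 14% of all windows. Alpl and Slc20a1 each had 1 further start, not shown, with 0 and 1 matches to the GC box and none to the RUNX core. GC content was 68.4% before Alpl, 75.6% before Phospho1, 75.2% before Slc20a1 and 58.8% before Anxa5, with a median of 52.4% over all windows. A match of letters is a description of the sequence and no evidence of binding.

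The first comparison asked where the genes were expressed, bone, condylar cartilage or MC. Alpl, Phospho1, Smpd3 and Anxa5 were 3.22-fold to 20.7-fold higher in bone than in MC, and in condylar cartilage they were also above MC. By the median over libraries Slc20a2 and Alpl were highest in bone, while Phospho1, Smpd3, Entpd5 and Anxa5 were highest in condylar cartilage. Several of the calls behind this order were lost in alternatives given below. Between bone and MC, 6 of the 8 genes passed the test at an adjusted p below 0.05, 5 of them higher in bone and 1 lower. Of all genes tested, 49.5% passed, 24.9% higher and 24.6% lower in bone. Tissues were compared with limma, with the embryo as a block and the genotypes averaged, and adjusted p-values are limma's, by Benjamini-Hochberg over all genes kept. Folds are on the fitted log2 scale. Phospho1 was below 1 FPKM in all 6 MC libraries and Smpd3 in 4 of 6, so that both passed the filter through bone and condylar cartilage and had to differ from MC.

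**Figure D1:**
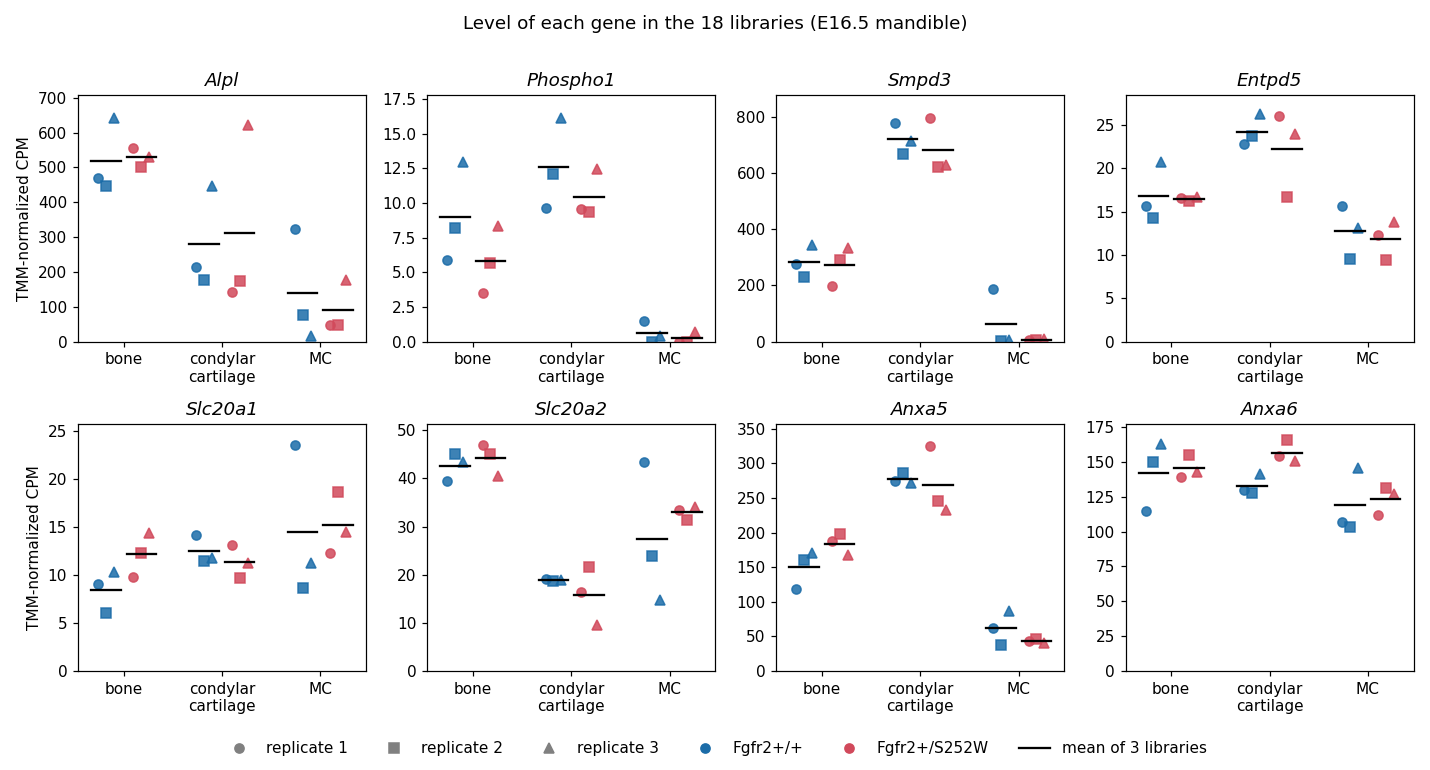
Level of each of the 8 genes in the 18 libraries, in TMM-normalized CPM on a linear axis from 0, by tissue and genotype, with a black line at the mean of 3 libraries. Smpd3 sat between 619 and 795 CPM in condylar cartilage and between 197 and 345 in bone, and in MC only Fgfr2+/+ replicate 1, at 186, lay above 7.88.

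Alpl is the marker enzyme of the osteoblast lineage. Its level in bone was 554, 502 and 531 CPM in the Fgfr2+/S252W and 469.7, 446 and 643 CPM in the Fgfr2+/+ libraries. In condylar cartilage it was 142, 175 and 621 CPM in the Fgfr2+/S252W and 216, 178 and 446 CPM in the Fgfr2+/+ libraries, and in MC 48.1, 49.1 and 176 against 324, 74.99 and 17.4 CPM. All 6 bone libraries lay above all 6 of MC, whereas condylar cartilage overlapped both, since its 2 libraries numbered 3 reached the level of bone, and MC Fgfr2+/+ replicate 1 and Fgfr2+/S252W replicate 3 reached that of cartilage. Alpl was 6.18-fold higher in bone than in MC (log2 2.63, SE 0.45, adjusted p = 0.000149), in 6 of 6 embryos. It was 2.99-fold higher in condylar cartilage than in MC (log2 1.58, SE 0.43, adjusted p = 0.0044), a call lost in Fgfr2+/+ embryos alone (adjusted p = 0.0835).

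Between bone and condylar cartilage the difference of Alpl was 2.07-fold (log2 1.047, SE 0.40, adjusted p = 0.0396), with bone higher in 5 of 6 embryos. The call passed in 7 of the 18 fits that left out 1 library. It was lost, with adjusted p-values up to 0.152, without replicate 1 or 2 of Fgfr2+/S252W bone, MC or condylar cartilage, without replicate 1 or 2 of Fgfr2+/+ condylar cartilage, without replicate 2 or 3 of Fgfr2+/+ bone and without replicate 2 of Fgfr2+/+ MC, and also in Fgfr2+/+ embryos alone (0.248). Without both condylar libraries numbered 3 it was 1.56 on the log2 scale (adjusted p = 0.0047), while condylar cartilage against MC fell to 1.00 (adjusted p = 0.0553). Those 2 libraries also held 5748 and 8670 CPM of Ibsp, the bone sialoprotein gene, against 2117 to 2897 in the other condylar libraries. The part of these markers in the result was not tested.

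Phospho1, the phosphatase of the vesicle lumen, was near absent from MC, with a median of 0.0924 FPKM there, 3.48 FPKM in bone and 5.36 FPKM in condylar cartilage. On the CPM scale it was at 3.53 to 12.99 CPM in bone (median 7.05) and at 9.37 to 16.2 CPM in condylar cartilage (median 10.9). In MC 3 of 6 libraries held 0 fragments, which at 3 fragments allows up to 0.401, 0.574 and 0.675 CPM, and the others held 2, 4 and 16 fragments. Every bone and condylar library, with 69 fragments or more, therefore lay above every MC library. Phospho1 passed the filter through bone and condylar cartilage, so its direction against MC is a description. The fitted differences were 4.37 for bone against MC (SE 0.54, adjusted p = 5.49e-06) and 5.05 for condylar cartilage against MC (SE 0.47, adjusted p = 8.56e-08) on the log2 scale, and with libraries at 0 they depend on the prior count of 0.5. The 16 fragments were those of MC Fgfr2+/+ replicate 1, and without that library the differences were 5.15 (adjusted p = 2.27e-06) and 5.83 (adjusted p = 7.44e-08). Phospho1 was lower in bone than in condylar cartilage by 0.68 on the log2 scale, or 1.60-fold (SE 0.22, adjusted p = 0.0168), in 6 of 6 embryos. That call was lost without Fgfr2+/S252W bone replicate 1, Fgfr2+/S252W condylar replicate 1 or Fgfr2+/+ bone replicate 1, with adjusted p-values up to 0.0873, and also with no filter (0.0729), library sizes alone (0.335) and in Fgfr2+/+ embryos alone (0.294).

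Smpd3 encodes neutral sphingomyelinase 2, which cuts sphingomyelin into ceramide and phosphocholine and is required for mineralization of the mouse skeleton. Of the 8 genes it had the largest fitted difference between condylar cartilage and MC. In condylar cartilage it was at 795, 619 and 628 CPM in the Fgfr2+/S252W and at 778, 665 and 714 CPM in the Fgfr2+/+ libraries, and in bone at 197, 290.3 and 332 against 277, 228 and 345 CPM. In MC it was at 4.14, 4.73 and 7.88 CPM in the Fgfr2+/S252W and at 186, 0.765 and 4.50 CPM in the Fgfr2+/+ libraries. The 3 tissues did not overlap, and 1 library of MC stood between bone and the rest of MC. Smpd3 was 46.7-fold higher in condylar cartilage than in MC (log2 5.55, SE 0.52, adjusted p = 9.0e-08) and 18.2-fold higher in bone than in MC (log2 4.19, SE 0.59, adjusted p = 2.2e-05). It passed the filter through bone and condylar cartilage, so its direction against MC is a description.

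The MC library with the high Smpd3 level was Fgfr2+/+ replicate 1, and it also held 230 CPM of Ibsp against 1.87 to 9.63 in the other MC libraries. Without it the difference of Smpd3 was 6.26 for bone against MC and 7.63 for condylar cartilage against MC on the log2 scale, and that of Alpl was 3.35 and 2.33. Smpd3 was 2.56-fold lower in bone than in condylar cartilage (log2 -1.36, SE 0.35, adjusted p = 0.00419). The same difference had an adjusted p of 0.0770 with edgeR's quasi-likelihood test, 0.109 with DESeq2, 0.0876 with library sizes alone and 0.105 in Fgfr2+/+ embryos alone.

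**Figure D2:**
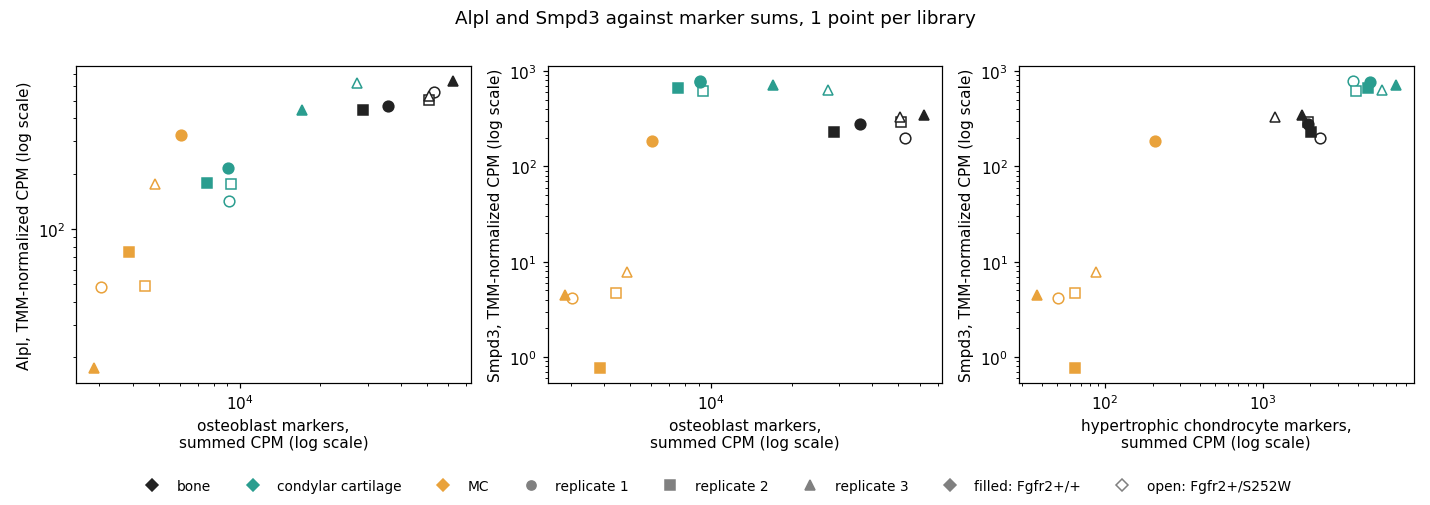
Alpl against the summed level of 12 osteoblast markers, and Smpd3 against that sum and the summed level of 5 hypertrophic chondrocyte markers, 1 point per library, all axes in TMM-normalized CPM on log scales. Among MC libraries, Fgfr2+/+ replicate 1 had the highest sum of both lists (6046 and 206) and the highest Alpl (324) and Smpd3 (186), and the condylar libraries numbered 3 lay closest to bone in Alpl and in osteoblast markers.

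Entpd5 encodes a diphosphatase that releases phosphate from nucleoside diphosphates, and its loss in zebrafish prevents mineralization of the skeleton. Its level was 14.2 to 20.7 CPM in bone (median 16.4), 16.7 to 26.3 CPM in condylar cartilage (median 23.8) and 9.46 to 15.6 CPM in MC (median 12.7). Condylar cartilage lay above MC in every library but overlapped bone. It was 1.85-fold higher in condylar cartilage than in MC (log2 0.89, SE 0.16, adjusted p = 0.00016) and 1.39-fold lower in bone than in condylar cartilage (log2 -0.47, SE 0.14, adjusted p = 0.0109), each in 6 of 6 embryos. The latter call was lost with library sizes alone (-0.18, adjusted p = 0.608) and in Fgfr2+/+ (0.118) or Fgfr2+/S252W embryos alone (0.119). For bone against MC the difference was 0.41 (95% interval 0.04 to 0.78, adjusted p = 0.0634). It passed in 1 of the 18 fits that left out 1 library, that without MC Fgfr2+/+ replicate 1 (0.55, adjusted p = 0.0316), and also with edgeR's quasi-likelihood test (adjusted p = 0.0359), DESeq2 (0.0385), filterByExpr (0.0473), no filter (0.0229), library sizes alone (3.60e-05) and without mitochondrial genes and Gm42418 (0.0494).

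Slc20a1 and Slc20a2 encode the phosphate carriers PiT1 and PiT2. Slc20a2 was at 46.9, 45.1 and 40.5 CPM in Fgfr2+/S252W bone and at 39.5, 45.1 and 43.3 CPM in Fgfr2+/+ bone. In condylar cartilage it was at 16.5, 21.7 and 9.49 against 19.1, 18.8 and 18.9 CPM, and in MC at 33.4, 31.3 and 34.1 against 43.4, 23.9 and 14.8 CPM. Bone and condylar cartilage did not overlap, and MC spanned the gap between them. Slc20a2 was 2.52-fold higher in bone than in condylar cartilage (log2 1.33, SE 0.18, adjusted p = 1.23e-05), in 6 of 6 embryos, and 1.75-fold lower in condylar cartilage than in MC (log2 -0.80, SE 0.19, adjusted p = 0.00153). The latter call was lost in Fgfr2+/+ embryos alone (-0.55, adjusted p = 0.159) and with library sizes alone (-0.002, adjusted p = 0.996), and the difference lay between -0.93 and -0.50 in the 18 fits that left out 1 library, all of which passed. The difference between bone and MC was 1.44-fold (log2 0.53, SE 0.19, adjusted p = 0.0327) and passed in 10 of the 18 fits that left out 1 library. It was lost, with adjusted p-values up to 0.0976, without replicate 1 or 3 of Fgfr2+/S252W bone, 1 or 2 of Fgfr2+/S252W MC, 2 or 3 of Fgfr2+/+ bone and 2 or 3 of Fgfr2+/+ MC, and also in Fgfr2+/+ (0.139) or Fgfr2+/S252W embryos alone (0.131).

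Levels of Slc20a1 overlapped between all 3 tissues, at 6.09 to 14.3 CPM in bone (median 10.03), 9.71 to 14.1 CPM in condylar cartilage (median 11.6) and 8.61 to 23.6 CPM in MC (median 13.4). It was the 1 gene lower in bone than in MC, by 1.46-fold (log2 -0.55, SE 0.22, adjusted p = 0.045), in 6 of 6 embryos. The highest MC value was again that of Fgfr2+/+ replicate 1, and without it the difference was -0.29 (adjusted p = 0.332). The call was also lost without replicate 1 or 2 of Fgfr2+/S252W bone, any 1 of Fgfr2+/S252W MC, replicate 1 or 2 of Fgfr2+/+ bone or replicate 3 of either genotype's condylar cartilage, and with edgeR's quasi-likelihood test (adjusted p = 0.0601), the embryo as a random block (0.0507), the condylar libraries numbered 3 left out (0.0553), the mitochondrial genes and Gm42418 left out (0.0669), filterByExpr (0.0699), sample weights (0.160), no filter (0.181) and Fgfr2+/+ (0.106) or Fgfr2+/S252W embryos alone (0.383). It was thus lost or turned in 20 of 31 alternatives. The intervals of its other differences were -0.67 to 0.18 for bone against condylar cartilage and -0.75 to 0.14 for condylar cartilage against MC, also on the log2 scale. On FPKM, which is per exon length, the median over libraries of Slc20a2 was 12.1 in bone and that of Slc20a1 2.84, against 8.87 and 3.79 in MC and 5.16 and 3.29 in condylar cartilage.

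The 2 annexins differed from each other. Anxa5 was at 187, 198 and 167 CPM in Fgfr2+/S252W and 119, 160.1 and 169.9 CPM in Fgfr2+/+ bone, at 325, 246 and 233 against 274, 286 and 271 CPM in condylar cartilage, and at 43.0, 46.4 and 40.8 against 62.7, 38.3 and 87.4 CPM in MC. The 3 tissues did not overlap. Anxa5 was 5.29-fold higher in condylar cartilage than in MC (log2 2.40, SE 0.14, adjusted p = 5.28e-10) and 3.22-fold higher in bone than in MC (log2 1.69, SE 0.15, adjusted p = 1.89e-07). It was 1.65-fold lower in bone than in condylar cartilage (log2 -0.72, SE 0.13, adjusted p = 0.000215), a call lost with library sizes alone (-0.41, adjusted p = 0.175), and all these directions held in 6 of 6 embryos.

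Anxa6 stayed between 103 and 165 CPM in all 18 libraries. Its medians were 146 CPM in bone, 146 CPM in condylar cartilage and 119 CPM in MC. The difference was 0.26 for condylar cartilage against MC (95% interval 0.05 to 0.48, adjusted p = 0.0368), 0.25 for bone against MC (0.03 to 0.47, adjusted p = 0.0564) and -0.01 for bone against condylar cartilage (-0.22 to 0.20, adjusted p = 0.936) on the log2 scale. The first passed in 9 of the 18 fits that left out 1 library. It was lost, with adjusted p-values up to 0.116, without any 1 library of Fgfr2+/S252W bone, replicate 1 of Fgfr2+/S252W MC, replicate 2 of Fgfr2+/+ MC, or replicate 1 or 2 of condylar cartilage of either genotype, and also with edgeR's quasi-likelihood test (0.0604), sample weights (0.0760) and in Fgfr2+/+ embryos alone (0.475). The second passed with filterByExpr (0.0284), no filter (0.00397), library sizes alone (9.79e-06), the mitochondrial genes and Gm42418 left out (0.0304) and in 3 of the 18 fits that left out 1 library. On FPKM the median of Anxa6 lay above that of Anxa5 in MC, at 48.0 against 26.6, and below it in condylar cartilage, at 58.6 against 162.

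**Figure D3:**
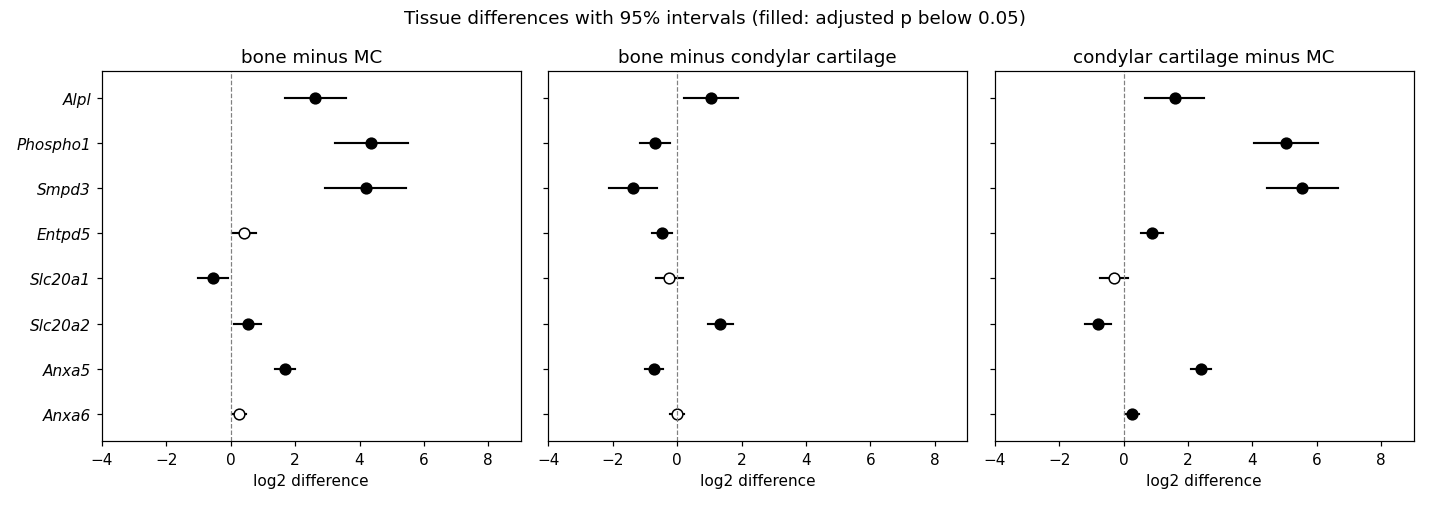
Fitted log2 differences between tissues with their 95% intervals, for bone minus MC, bone minus condylar cartilage and condylar cartilage minus MC, with filled points where limma's adjusted p was below 0.05. Phospho1 and Smpd3 lay at 4.19 or above against MC in bone and in condylar cartilage, and Slc20a1 lay within 0.55 of 0 in each comparison.

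Counted over the comparisons, bone against condylar cartilage had 6 of 8 genes past the threshold, 2 higher in bone (Alpl and Slc20a2) and 4 lower (Phospho1, Smpd3, Entpd5 and Anxa5). Of all genes tested 47% passed, 24.3% higher and 22.7% lower in bone. With edgeR's quasi-likelihood test and with DESeq2, Alpl (adjusted p = 0.0800 and 0.137), Phospho1 (0.133 and 0.108) and Smpd3 no longer passed. Condylar cartilage against MC had 7 of 8, 6 higher and 1 lower, with 57.7% of all genes past the threshold, 28.6% higher and 29.1% lower. Among the 6 higher are Phospho1 and Smpd3, which had to differ from MC as said above. The median difference of the 8 genes was 1.11 for bone against MC, -0.36 for bone against condylar cartilage and 1.23 for condylar cartilage against MC, where the median of all genes was -0.00, -0.00 and -0.01.

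The split into higher and lower genes depended on how the libraries were scaled. With library sizes alone in place of TMM, the median of all genes shifted by 1.07 for bone against MC, by 0.30 for bone against condylar cartilage and by 0.76 for condylar cartilage against MC. On that scale 7 genes were higher and 0 lower in bone than in MC, 2 higher and 0 lower in bone than in condylar cartilage, and 6 higher and 0 lower in condylar cartilage than in MC. Over all genes bone against MC then split into 7807 higher and 512 lower in place of 2856 and 2816. For the other comparisons this split is not given here, so their counts have only the shift of the median beside them. Slc20a1 turned to 0.51 for bone against MC, below the shift of all genes, as it was with TMM. For genotype the same change of scaling shifted the median of all genes by 0.18 in bone and -0.12 in condylar cartilage.

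The second comparison asked whether the Fgfr2 mutation went with other levels of these genes in a tissue. None passed in any tissue. With limma, 0 of 8 passed in bone, 0 of 8 in MC and 0 of 8 in condylar cartilage, where 0.0872%, 0% and 0% of all genes passed. None of the 8 had an unadjusted p below 0.05 in any tissue, where 8.13%, 15.4% and 3.06% of all genes did in bone, MC and condylar cartilage, and edgeR's quasi-likelihood test and DESeq2 also called 0 of 8. Over all genes these tools made other numbers of calls than limma, above all in MC, which are given in the closing section. A p that misses the threshold does not show that the genotypes had equal levels, and the 95% intervals of the log2 differences are therefore given.

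Among the enzymes in bone, Phospho1 was lower on average, at 3.53, 5.67 and 8.35 CPM in Fgfr2+/S252W against 5.89, 8.22 and 12.99 CPM in Fgfr2+/+ libraries, and these ranges overlapped. The difference was -0.66 on the log2 scale (95% interval -1.43 to 0.11, adjusted p = 0.697). Alpl, whose product marks osteogenic tissue in stains of alkaline phosphatase, differed by 0.04 in bone (-1.18 to 1.27), Smpd3 by -0.07 (-1.08 to 0.94) and Entpd5 by -0.03 (-0.44 to 0.39). The interval of Alpl spans a fold of 0.442 to 2.40. These values moved with the uneven Fgfr2+/+ bone libraries. Without their replicate 1, 2 or 3 in turn Phospho1 differed by -0.94, -0.70 and -0.33 and Alpl by -0.02, -0.06 and 0.21, and 0 of 8 genes passed each time. In the 18 fits that left out 1 library Smpd3 ran from -0.23 to 0.15 and Entpd5 from -0.14 to 0.14. Of Fgfr2+/+ bone, replicate 3 was highest in Alpl and in Phospho1 as it was in osteoblast markers, and the part of these markers and of the mitochondrial share in the result was not tested.

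Of the carriers, Slc20a1 was at 9.78, 12.3 and 14.3 CPM in Fgfr2+/S252W bone and at 9.03, 6.09 and 10.3 CPM in Fgfr2+/+ bone. The lowest Fgfr2+/S252W library lay below the highest Fgfr2+/+ library, and the difference was 0.51 (95% interval -0.07 to 1.10, adjusted p = 0.678), or 0.56, 0.31 and 0.68 without Fgfr2+/+ bone replicate 1, 2 or 3. Slc20a2 differed by 0.05 (-0.40 to 0.51) and Anxa6 by 0.05 (-0.25 to 0.35). Anxa5, with the levels given above, differed by 0.31 (-0.07 to 0.69, adjusted p = 0.728). Over the 8 genes the median difference in bone was 0.05 and that of all genes -0.00.

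**Figure D4:**
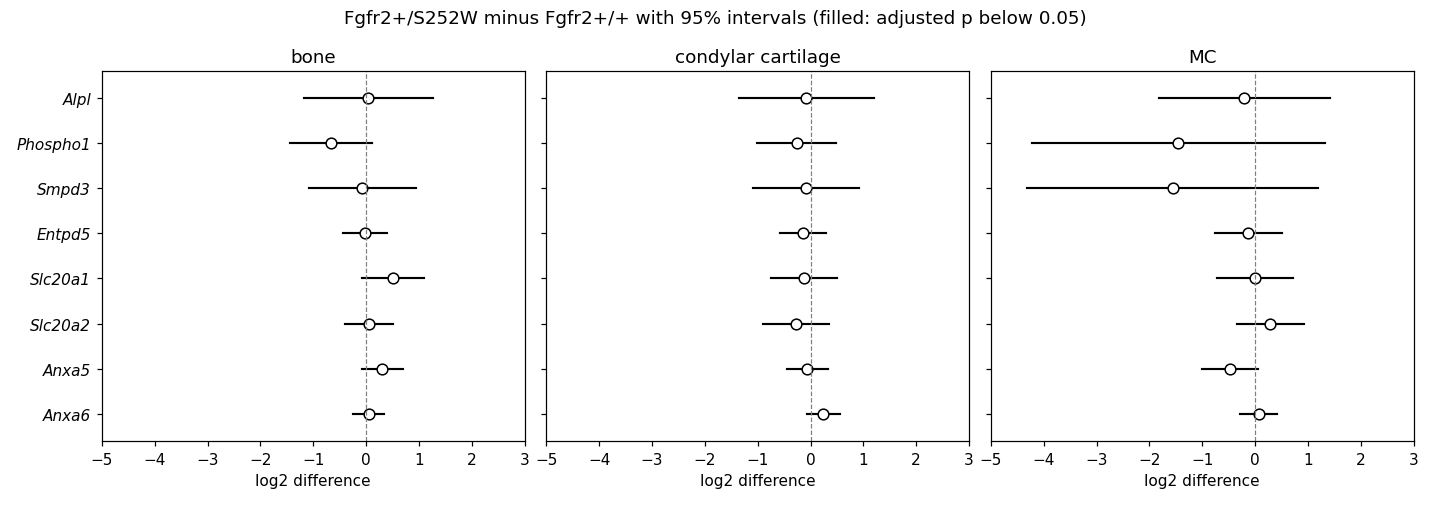
Fitted log2 differences of Fgfr2+/S252W minus Fgfr2+/+ with 95% intervals in bone, condylar cartilage and MC, all points open because none passed. The interval of Smpd3 in MC ran from -4.31 to 1.19, and that of Anxa6 in bone from -0.25 to 0.35.

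In condylar cartilage the 8 differences lay between -0.27 (Slc20a2, 95% interval -0.89 to 0.34) and 0.24 (Anxa6, -0.07 to 0.55), each with an adjusted p of 0.998. Anxa6 was at 154, 165 and 150.3 CPM in the Fgfr2+/S252W and at 129.6, 128 and 142 CPM in the Fgfr2+/+ libraries. Alpl differed by -0.08 (-1.36 to 1.19), with the libraries numbered 3 highest in both genotypes, and by -0.32 without them. In the 18 fits that left out 1 library the difference of Alpl ran from -0.71, without Fgfr2+/S252W replicate 3, to 0.34, without Fgfr2+/S252W replicate 1, and no direction is read from it. Smpd3, at its highest level in this tissue, differed by -0.08 (-1.08 to 0.91).

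In MC the intervals were wide, and Phospho1 was below the filter's 1 FPKM in every MC library. Smpd3 differed by -1.56 (95% interval -4.31 to 1.19), Phospho1 by -1.45 (-4.23 to 1.32), Alpl by -0.20 (-1.82 to 1.42) and Anxa5 by -0.47 (-1.002 to 0.064, adjusted p = 0.385). Most of these values rested on Fgfr2+/+ replicate 1, and without it Smpd3 turned to 1.44, Alpl to 1.07 and Slc20a1 to 0.58 from -0.00, while Phospho1 was at -0.27 and Anxa5 at -0.41. Phospho1 ran down to -2.46 without Fgfr2+/S252W replicate 3 and Smpd3 to -2.92 without Fgfr2+/+ replicate 2. Among MC libraries, Fgfr2+/+ replicate 1 had the highest osteoblast and the lowest chondrocyte sum. The sum of 6 macrophage markers in MC was 77.9 to 97.7 CPM in Fgfr2+/S252W and 24.3 to 63.3 CPM in Fgfr2+/+ libraries. That of 8 osteoclast markers was 64.0 to 70.5 against 89.4 to 257 CPM. The part of these markers in the result was not tested.

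The genotype effect was also compared between tissues. No gene passed, with 0 of 8 for each pair of tissues and 0.0349%, 0% and 0% of all genes past the threshold for bone against MC, bone against condylar cartilage and condylar cartilage against MC. At an unadjusted p below 0.05 there was 1 gene for bone against MC, Anxa5 (0.82, 95% interval 0.15 to 1.48, adjusted p = 0.469), and 1 for condylar cartilage against MC, Smpd3 (2.78, 0.27 to 5.29, adjusted p = 0.438). Of all genes 9.12% and 10.4% had an unadjusted p below 0.05 in these 2 comparisons, so that 1 of 8 is near the background. Without MC Fgfr2+/+ replicate 1 the values were 0.69 and -1.34. edgeR's quasi-likelihood test and DESeq2 called none, and their shares of all genes are not given here.

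Around these 8 genes, 43 others of phosphate, pyrophosphate, phosphocholine and sphingomyelin handling, the annexin family and phosphate control were examined as a list, of which 27 were kept by the filter. Between bone and MC 16 of the 27 were higher and 5 lower in bone, and between condylar cartilage and MC 16 were higher and 6 lower in cartilage, against the 24.9% and 24.6% and the 28.6% and 29.1% of all genes given above. The median difference was 0.86 and 1.02, beside medians of all genes near 0. Between bone and condylar cartilage 10 were higher and 7 lower in bone, against 24.3% and 22.7% of all genes, with a median of 0.08. The counts over this list were made with TMM only. Enpp6, Phex and Dmp1, described below, were low in MC and passed the filter mainly through bone and condylar cartilage. The counts of genes higher than in MC include them and are a description.

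Of 5 genes of sphingomyelin turnover, the route of Smpd3, 2 were higher and 1 lower in bone than in MC, and 1 was higher and 4 were lower in condylar cartilage than in MC, where 49.5% and 57.7% of all genes passed. The 1 was Sgms2, which makes sphingomyelin, the substrate of neutral sphingomyelinase 2. It was 4.13 higher in bone and 6.20 higher in condylar cartilage than in MC on the log2 scale. Its group means were 3568 and 2974 CPM in condylar cartilage of Fgfr2+/+ and Fgfr2+/S252W embryos and 794 and 759.9 in bone. In MC it was at 186, 19.7 and 63.7 CPM in the Fgfr2+/+ and at 20.7, 37.4 and 24.9 CPM in the Fgfr2+/S252W libraries, where the highest value was that of Fgfr2+/+ replicate 1. Without that library the differences of Sgms2 were 4.65 and 6.73. Of 6 genes of the phosphocholine route, on which Phospho1 acts, 3 were higher and 1 lower in each mineralizing tissue than in MC, against 24.9% and 24.6% of all genes in bone and 28.6% and 29.1% in condylar cartilage. Enpp6 is 1 of the 3, and with mean levels of 0.121 FPKM or less in MC it passed the filter through the other tissues. It encodes a choline-specific phosphodiesterase that releases phosphocholine and was named after its values were seen. Slc44a1, a choline transporter, was 2.05 higher in bone than in MC and 1.14 higher in condylar cartilage than in MC. Enpp6 was 3.68 higher in bone than in condylar cartilage, the reverse of the direction of Phospho1.

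Of the other annexins, 5 of 7 were kept, of which 4 were higher in bone than in MC and 4 higher in condylar cartilage than in MC, where 24.9% and 28.6% of all genes were, among them Anxa2 (0.69 in bone and 1.15 in condylar cartilage) and Anxa4 (0.99 and 2.19). Of 5 phosphate control genes 3 were kept, among them Phex and Dmp1, which were 6.75 and 9.17 higher in bone than in MC. In MC of Fgfr2+/S252W and Fgfr2+/+ embryos their mean levels were 0.315 and 1.11 FPKM for Phex and 0.323 and 0.162 FPKM for Dmp1, so that they passed the filter mainly through bone and condylar cartilage, and their direction against MC is a description. MC libraries held 0 to 8 fragments of Dmp1, so that its fitted value depends on the prior count. Phex, Dmp1 and Spp1 also stand in the osteoblast marker list. Spp1, a secreted phosphoprotein that binds mineral, was 7.51 higher in bone than in MC. Enpp2 and Nt5e, an ectophosphodiesterase and the nucleotidase that makes adenosine from AMP, were lower in bone than in condylar cartilage, at -2.94 and -3.64 on the log2 scale.

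By genotype, 2 of the 27 passed in bone and none in either cartilage, where 0.0872% of all genes passed in bone and 0% in each cartilage. Both were higher in Fgfr2+/S252W bone, Ank, which exports pyrophosphate or its precursor from cells, at 1.34 (SE 0.18, adjusted p = 0.00278) and Xpr1, the phosphate exporter, at 0.77 (SE 0.14, adjusted p = 0.0483). Ank was at 194, 194 and 156 CPM in Fgfr2+/S252W and at 58.8, 72.6 and 85.2 CPM in Fgfr2+/+ bone, and Xpr1 at 289, 265 and 258 against 143, 161 and 173 CPM. The call of Ank was lost without Fgfr2+/+ bone replicate 1 (1.20, adjusted p = 0.0549) and with library sizes alone (1.52, adjusted p = 0.0585), and it passed in the other 17 fits that left out 1 library. That of Xpr1 passed in 6 of these 18 fits. It was lost, with adjusted p-values up to 0.399, without any 1 library of Fgfr2+/S252W bone or MC, replicate 1 or 2 of Fgfr2+/+ bone, replicate 3 of Fgfr2+/+ MC, replicate 2 of Fgfr2+/S252W condylar cartilage, or replicate 1 or 2 of Fgfr2+/+ condylar cartilage. It was also lost with edgeR's quasi-likelihood test (adjusted p = 0.351), the replicate block (0.0570) and library sizes alone (0.871), although its difference stayed at 0.69 or above. Enpp1, which makes pyrophosphate and is named here after its values were seen, had a larger fitted difference that did not pass (1.84, SE 0.41, adjusted p = 0.0933), at 354 to 443 CPM in Fgfr2+/S252W and 87.2 to 146 CPM in Fgfr2+/+ bone. In the same tissue the interval of Alpl, whose product breaks pyrophosphate down, included 0, and whether the effects of Ank and Alpl differed was not tested. The summed level of 8 osteoclast markers was 1719 to 2377 CPM in Fgfr2+/S252W and 921 to 1189 CPM in Fgfr2+/+ bone, with no overlap. The sum of 6 red blood cell markers was 315 to 597 CPM in Fgfr2+/S252W and 1257 to 1506 CPM in Fgfr2+/+ bone, also with no overlap. That of 7 connective tissue markers was 1582 to 1806 against 1765 to 2673 CPM, with overlap, as for the muscle markers above. The sum of 6 macrophage markers in bone was 121 to 147 CPM in Fgfr2+/S252W and 105 to 132 CPM in Fgfr2+/+ libraries, with overlap. With limma, 0 of 4 osteoclast and 0 of 5 red blood cell markers kept by the filter passed by genotype in bone. Of 3 macrophage markers kept, 1 was called lower in Fgfr2+/S252W bone, where 0.0872% of all genes passed. The part of these cells in the differences was not tested.

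Genes with the most similar pattern were found by Pearson's r of log2(CPM + 0.5) over the 18 libraries, which share tissues and embryos, so that r is a description. Closest to Alpl were Pheta2 (0.97), Stxbp3 (0.93) and Runx2 (0.93), the transcription factor of the osteoblast lineage, and r with Runx2 was 0.91 after the tissue means were taken out. Closest to Smpd3 were Slc13a5 (0.98), a citrate carrier, Pde8a (0.98) and Srp72 (0.97), and closest to Phospho1 were Mef2c (0.98), Tmem263 (0.97) and Cd200 (0.97). For Anxa5 they were Fkbp11 (0.98), Sgms2 (0.98) and Tvp23b (0.97), and for Entpd5 Slc39a9 (0.92), Slc37a4 (0.92) and Chsy1 (0.91). After the tissue means were taken out r was lower, at 0.86 to 0.90 for the 3 neighbours of Smpd3, 0.69 to 0.79 for those of Phospho1, 0.60 to 0.77 for those of Anxa5 and 0.60 to 0.72 for those of Entpd5.

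The carriers and Anxa6 had other neighbours. For Slc20a2 they were Lpar6 (0.95), Angpt2 (0.94) and Skp2 (0.93), for Slc20a1 Rbl1 (0.81), Gm12258 (0.81) and Gm23504 (0.80), and for Anxa6 Hadha (0.83), Pnpla8 (0.80) and Gm6807 (0.80), with r within tissues of 0.66 to 0.83 for these 9 pairs. The mean of the 8 standardized genes was closest to Tmx1 (0.95), Pde8a (0.95), Sp7 (0.95), Nt5dc2 (0.95) and Wif1 (0.95). Within the 8 genes r was highest between Phospho1 and Smpd3 (0.96), at 0.72 within tissues, and it was 0.75 between Alpl and Phospho1 and -0.17 between Alpl and Slc20a1, which became 0.56 and 0.38 within tissues.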

How the data were processed

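RNA was captured by laser from frozen coronal sections of 6 embryos, amplified and sequenced in pairs. Per the labels and the file headers, the authors trimmed adapters with cutadapt, aligned with STAR to the mm10 genome, and summarized fragments over Ensembl release 75 genes with featureCounts 1.5.0-p1 without regard to strand, so reads of overlapping antisense genes cannot be told apart. Fragments that mapped to several places or genes were not counted. The deposited values are raw counts per gene, 1 table per library, and whether PCR duplicates were removed is not given in the sources used here.

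From the deposited counts, R 4.3.3 with limma 3.58.1 (voom, TMM factors from edgeR 4.0.16) fitted all 18 libraries. A gene entered the fit where its FPKM, taken from its count and exon length, passed 1 in 50% or more of the 18 libraries. Genotype effects were contrasts of group means, and tissue effects and interactions had the embryo as a block. Tests were two-sided, with Benjamini-Hochberg adjustment over all genes kept and a threshold of 0.05. With 3 libraries against 3, an exact permutation test cannot go below p = 0.1. Levels are TMM-normalized CPM, and correlations used log2(CPM + 0.5). Limits on libraries with 0 fragments (3 fragments) and all intervals cover counting or between-library error only. As alternatives, DESeq2 1.42.0 and the quasi-likelihood test of edgeR were run, and other filters, scalings, weights, blocks and subsets were tried, as was leaving out each library. Leaving out both condylar libraries numbered 3 was chosen after seeing the data. The code was tested on simulated data.

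The 8 genes, the 43 further genes and the quoted osteoblast, chondrocyte, hypertrophic, osteoclast, macrophage, skeletal muscle, red blood cell and connective tissue marker lists were chosen with earlier results of these data known. Named were the 8 genes in every comparison, the 3 genes most like each in pattern (5 for their mean), and genes of the longer list past the threshold, at most the 5 with the smallest adjusted p per comparison; Enpp1, Enpp6, Slc44a1 beyond bone against MC, Phex, Anxa2, Anxa4 and Dmp1 beyond their own comparisons were chosen after their values were seen. Whether the replicate numbers pair the genotypes was checked by the correlation of same-numbered libraries' deviations from their group means, which was -0.08 to 0.24 in bone, -0.21 to -0.06 in MC and 0.07 to 0.35 in condylar cartilage, so they were not paired. Tissues of 1 number and genotype were taken as 1 embryo, from the labels, although their deviations did not correlate (mean r -0.001, over 0.1 in 0 of 18 pairs). Gene counts cannot check the S252W allele. Promoter windows came from RefSeq.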

Additional observations from a re-analysis of the deposited data

How the results depend on the processing

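For genotype, 0 of the genes tested among the 8 were called under any alternative run (Phospho1 and Smpd3 were not kept in the fit of the 6 MC libraries alone), and the replicate block on number within tissue, whose numbers were not shown to pair the genotypes, also gave 0 in each tissue. The tissue counts were the same without the embryo block (6, 6 and 7) and were 5, 6 and 7 with the embryo as a random block, where Slc20a1 was lost for bone against MC (adjusted p = 0.0507 with an estimated correlation). For bone against MC the count of 6 was 6 with edgeR (all higher), 7 with DESeq2 (6 higher and 1 lower) and 4 in the embryos of either genotype alone. For bone against condylar cartilage the count of 6 moved to 3 with edgeR, 3 with DESeq2, 2 with library sizes alone and 2 in Fgfr2+/+ embryos alone, and for condylar cartilage against MC the count of 7 moved to 4 in Fgfr2+/+ embryos alone. Leaving out 1 library gave 4 to 6, 4 to 6 and 6 to 7. The shares of all genes past the threshold in these alternatives are not given here, so these moves are not set against a background. Over all genes, the genotype effect in bone had 10 calls with limma, 4 with edgeR, 18 with DESeq2, 1 with library sizes alone, 7 with the replicate block, 21 with filterByExpr, 25 in the 12 libraries of bone and MC, 53 with no filter, 141 in the 6 bone libraries alone and 589 with sample weights. Leaving out 1 library gave 0 (without Fgfr2+/+ bone replicate 1) to 91 (without replicate 3) there. In MC it had 0 calls with limma, 90 with edgeR, 423 with DESeq2 and 45 with no filter, and up to 138 (without Fgfr2+/+ MC replicate 2). In condylar cartilage it had 0, 0 and 3 with the 3 tools and 2 with sample weights. The cause of these moves was not tested.

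With library sizes alone, Slc20a1 turned to 0.51 (bone against MC), 0.041 (bone against condylar cartilage) and 0.47 (condylar cartilage against MC), and Anxa6 to 0.29 (bone against condylar cartilage). In the same setting the differences of the genotype effect of Anxa6 turned to 0.26 (bone against MC) and 0.11 (bone against condylar cartilage). Between bone and condylar cartilage Slc20a1 was 0.080 in Fgfr2+/S252W embryos alone and Anxa6 0.090 in Fgfr2+/+ embryos alone. With sample weights Alpl turned to 0.59 for genotype in MC and to -0.71 for the genotype effect in condylar cartilage against MC.

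Leaving out 1 library gave these ranges. For genotype they were -0.10 to 0.15 for Anxa6 in bone, and in MC -1.15 to 1.07 for Alpl, -0.27 to 0.58 for Slc20a1, -2.92 to 1.44 for Smpd3 and -0.038 to 0.83 for Slc20a2. For the genotype effect in bone against MC they were -1.14 to 1.45 for Alpl, -0.70 to 1.89 for Phospho1 and -1.32 to 3.59 for Smpd3. For condylar cartilage against MC they were -1.23 to 1.35 for Alpl, -0.35 to 2.25 for Phospho1 and -1.34 to 3.55 for Smpd3. The values for Alpl, Phospho1 and Smpd3 crossed 0 without Fgfr2+/+ MC replicate 1. With 3 libraries per group, the depth and spread in MC limit what can be seen of Phospho1 and Smpd3 there.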
